A study of Mus musculus with 9 samples.

Results

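Salt absorption by the intestinal epithelium was followed here through 10 genes chosen by name. They were the epithelial sodium channel subunits Scnn1a, Scnn1b and Scnn1g, the sodium-proton exchangers Slc9a2 and Slc9a3, the chloride-bicarbonate exchanger Slc26a3, the colonic proton-potassium pump Atp12a and 3 genes of the aldosterone response, Nr3c2, Hsd11b2 and Sgk1. All 10 were present in the count table of 78239 genes, and all 10 were among the 20610 genes with enough counts to be tested. Scnn1b, Scnn1g and Atp12a passed that filter only through the colon libraries, so in those genes a difference from the small intestine was in part built into the filter.

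All groups came from 8-week-old mice of the Lgr5-2A-eGFP strain, whose GFP follows Lgr5, a receptor carried by intestinal stem cells, and polyadenylated RNA of sorted epithelial cells was sequenced. There were 3 libraries from GFP-high cells of the colon, 3 from its GFP-negative cells and 3 from the small intestine. The labels name no GFP fraction for the small intestine, so its tissue and fraction cannot be told apart in any comparison. They do not say that replicates came from separate animals either, and p-values therefore measure the spread between these samples, which may be technical.

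Total counts lay between 86621513 and 106673547 per library, and Epcam, an epithelial surface marker, between 3017 and 6207 CPM, which are counts scaled to library size, in all 9. Lgr5 went against the labels in colon replicate 2. It stood at 43.5, 0.958 and 73.0 CPM in the libraries labelled colon GFP-high 1 to 3, against 2.84, 62.1 and 6.28 CPM in those labelled colon GFP-negative 1 to 3, and at 57.9, 120 and 209 CPM in small intestine. The libraries kept their labels, every direction between the colon fractions rests on those labels, and values without the replicate 2 pair are given beside them. The comparison of all colon with small intestine takes the mean of both colon groups. A fit of 2 groups that ignores the GFP labels called the same 4 of the 10 genes as that mean and Atp12a besides (edgeR adjusted p = 0.0456), with 2255 genes called in all in place of 1812.

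In tight epithelia such as the distal colon and the kidney collecting duct, sodium enters the cell through the epithelial sodium channel, which is built from an alpha, a beta and a gamma subunit. Aldosterone binds the mineralocorticoid receptor, encoded by Nr3c2, and the activated receptor raises the synthesis of channel subunits and of the kinase SGK1, which holds the channel at the cell surface by restraining the ubiquitin ligase NEDD4-2. HSD11B2 inactivates glucocorticoids in these cells and so leaves the receptor to aldosterone, while electroneutral absorption runs through sodium-proton exchangers coupled to chloride-bicarbonate exchange.

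Promoter sequences of 3 genes are shown, those of the kinase gene Sgk1 and of the channel subunit genes Scnn1b and Scnn1g. Sgk1 had 6 promoters, and the promoter shown was picked because it holds the palindrome named below. The sequences are the 250 bases before the transcription start on the plus strand of GRCm38.p6, credited to RefSeq. Capitals mark matches, on either strand, to the steroid receptor core site AGAACA, to the palindrome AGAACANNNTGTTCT that contains it, and to TTTATG, a site of the intestinal factors of the CDX family. The Sgk1 promoter lies at chr10:21993640-21993889, that of Scnn1b at chr7:121864788-121865037 and that of Scnn1g at chr7:121734229-121734478.
Sgk1: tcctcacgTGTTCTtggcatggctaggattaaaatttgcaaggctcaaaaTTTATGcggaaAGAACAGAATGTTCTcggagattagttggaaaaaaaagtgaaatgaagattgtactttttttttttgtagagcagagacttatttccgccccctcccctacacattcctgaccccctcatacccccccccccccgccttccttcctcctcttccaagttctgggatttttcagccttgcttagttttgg
Scnn1b: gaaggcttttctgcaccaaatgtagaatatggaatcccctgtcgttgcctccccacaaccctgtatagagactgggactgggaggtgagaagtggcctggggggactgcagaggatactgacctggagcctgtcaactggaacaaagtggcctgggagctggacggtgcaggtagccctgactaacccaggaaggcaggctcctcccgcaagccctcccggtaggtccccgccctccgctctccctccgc
Scnn1g: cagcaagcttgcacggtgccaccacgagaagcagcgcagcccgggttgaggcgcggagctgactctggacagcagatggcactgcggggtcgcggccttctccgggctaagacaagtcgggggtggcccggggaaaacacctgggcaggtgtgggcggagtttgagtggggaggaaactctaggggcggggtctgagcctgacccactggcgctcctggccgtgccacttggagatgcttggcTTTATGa

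The palindrome, for which this Sgk1 promoter was picked, stood there as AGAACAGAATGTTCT from base -189 to base -175. It was found in 0.00913% of the 32851 mouse promoters searched, which is 3 promoters, this promoter among them. The core site alone was held by 16.1% of promoters, TTTATG by 10.8%, and CAAAGTCCA, a site of the enterocyte factor HNF4, by 0.384%. RefSeq promoters were matched for 6 of the 10 genes, with 11 promoters in all, of which 6 belonged to Sgk1. Among those 11, the core site stood in 3 promoters, all of Sgk1, and TTTATG in 1 promoter of Sgk1 and in that of Scnn1g. None of the 11 held CAAAGTCCA. G and C made up 44.8% of the Sgk1 window, 60.8% of the Scnn1b window and 65.2% of the Scnn1g window, against a median of 52.4% over all promoters. These matches describe letters in a window and not binding.

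Between colon and small intestine, 4 of the 10 genes were called higher in colon and none lower, at an adjusted p under 0.05 in edgeR's quasi-likelihood test with Benjamini-Hochberg adjustment over all genes tested. They were Hsd11b2, Sgk1, Scnn1b and Scnn1a, and they were also the 4 genes in which every colon library lay above every small intestinal library. Scnn1b passed the filter on low counts only through the colon, so its call was in part built into the filter. Of all genes tested, 8.79% were called in either direction, 5% higher and 3.79% lower, and 9.49% had every colon library above every small intestinal one. The median log2 fold change over all genes tested was -0.0003. In bulk samples such as these, fewer cells of a type and less RNA per cell cannot be told apart.

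**Figure D1:**
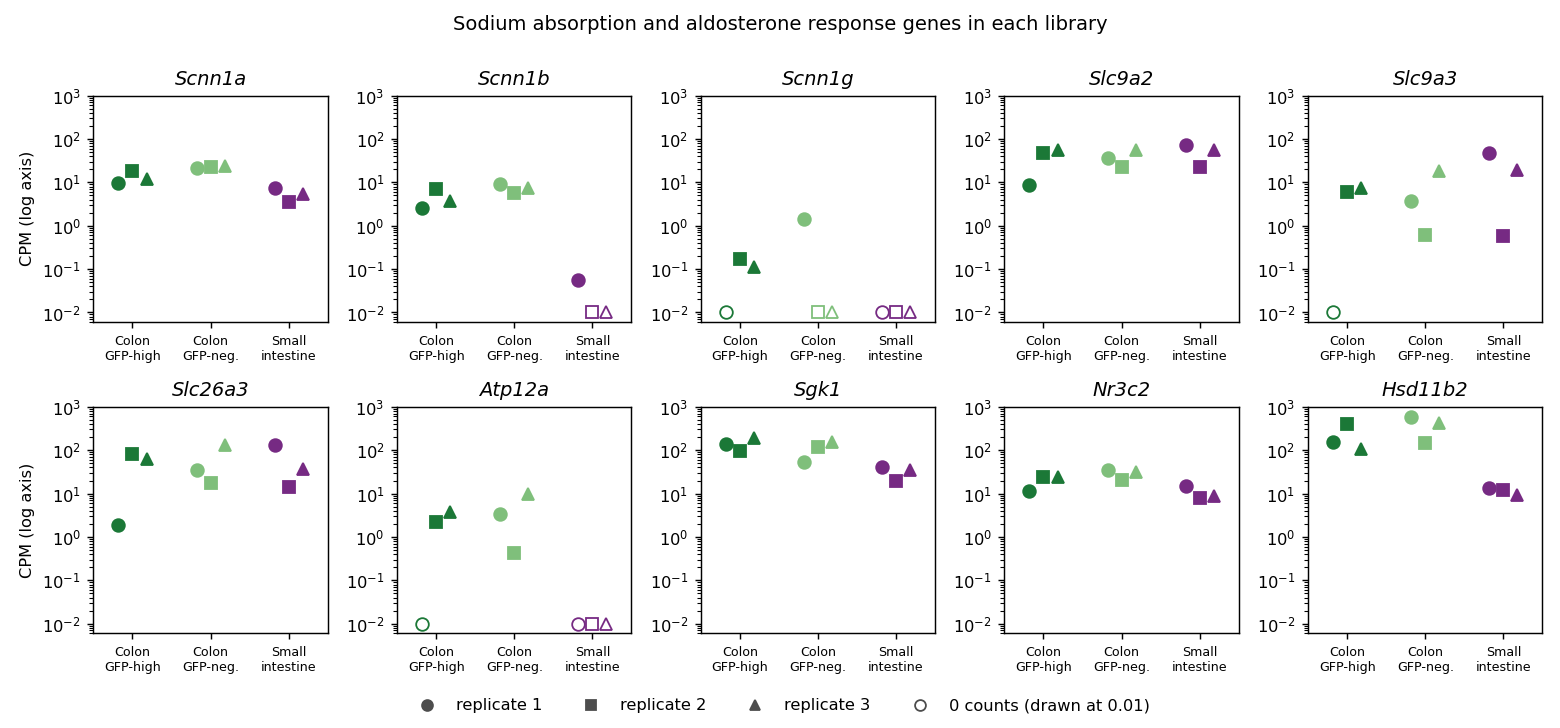
CPM of each of the 10 genes in the 9 libraries, on a log axis, with the 3 replicates of each group as circle, square and triangle and libraries without a count drawn as open symbols at the foot of the axis. The 6 colon libraries of Hsd11b2 sit between 105 and 584 CPM, all above the small intestinal libraries, while those of Slc9a2, Slc9a3 and Slc26a3 overlap with the small intestine.

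Hsd11b2 (ENSMUSG00000031891.7, chromosome 8, 105518755 to 105523988 in GRCm38, plus strand) encodes the dehydrogenase that inactivates glucocorticoids and was the member with the highest level per base in colon. Its levels were 152, 411 and 105 CPM in the GFP-high libraries of the colon, replicates 1 to 3, and 584, 145 and 418 CPM in its GFP-negative libraries, against 13.3, 12.1 and 9.25 CPM in small intestine. The colon libraries spread over a wide range and did not come near the small intestinal ones, which lay close together. Hsd11b2 was 25.3-fold higher in all colon than in small intestine, a log2 fold change of 4.66 ± 0.66 (SE; edgeR adjusted p = 0.00382). Within the fractions the log2 fold change against small intestine was 4.27 ± 0.67 for GFP-high (edgeR adjusted p = 0.00858) and 5.05 ± 0.70 for GFP-negative (edgeR adjusted p = 0.00461). As RPKM, a level scaled for gene length and depth, it averaged 164 ± 106 in colon and 6.28 ± 1.13 in small intestine (SD, n = 6 and 3).

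Between the colon fractions Hsd11b2 averaged 222 ± 165 CPM in GFP-high libraries and 383 ± 222 CPM in GFP-negative ones (SD, n = 3 each), with overlapping libraries and a log2 fold change of -0.79 ± 0.59 (edgeR adjusted p = 1). Without the replicate 2 pair, whose Lgr5 goes against the labels, only replicates 1 and 3 of each fraction were left. The log2 fold change was then -1.97 ± 0.37 with an edgeR adjusted p of 0.349. DESeq2, run on the same libraries after the data had been seen, gave -2.01 with an adjusted p of 0.000186. In that comparison it called 702 of the 21770 genes tested. Markers of several cell types moved with that difference. In replicates 1 and 3, leukocyte markers summed to 2.32 and 20.2 CPM in GFP-high libraries, against 553 and 1541 CPM in GFP-negative ones. Enteroendocrine markers summed to 670 and 490 CPM in GFP-high libraries, against 3391 and 3320 CPM in GFP-negative ones. Surface colonocyte markers summed to 1955 and 11119 CPM in GFP-high libraries, against 15409 and 32168 CPM in GFP-negative ones. Goblet cell markers summed to 14197 and 7476 CPM, against 46813 and 23393 CPM. Stem cell markers went the other way, with 1038 and 1364 CPM against 369 and 256 CPM. Single markers departed from these sums. Among these libraries, the surface markers Car4, Aqp8 and Saa1 were highest in GFP-high replicate 3 (523, 240 and 348 CPM). The enteroendocrine Gcg and Insl5 and the goblet cell Spdef were highest in GFP-high replicate 1 (399, 23.6 and 234 CPM). The stem cell marker Olfm4 was highest in GFP-negative replicate 1 (5.15 CPM). The part of these cell types in the Hsd11b2 difference was not tested.

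Nr3c2 (ENSMUSG00000031618.14, chromosome 8, 76899442 to 77245012, plus strand) encodes the mineralocorticoid receptor. It had 11.8, 23.9 and 24.1 CPM in the GFP-high libraries of the colon and 34.3, 20.3 and 31.8 CPM in its GFP-negative libraries, against 14.9, 8.07 and 8.58 CPM in small intestine. Apart from GFP-high replicate 1, the colon libraries lay above the small intestinal libraries. The difference between all colon and small intestine, 1.19 ± 0.35 on the log2 scale, did not pass the test (edgeR adjusted p = 0.0698), and without GFP-high replicate 1 it did (edgeR adjusted p = 0.0466). It also did under scaling by total counts (edgeR adjusted p = 0.0459) and in DESeq2 (adjusted p = 0.00817). The receptor was thus near the threshold, with 24.4 ± 8.12 CPM in colon and 10.5 ± 3.78 CPM in small intestine (SD, n = 6 and 3).

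Sgk1 (ENSMUSG00000019970.16, chromosome 10, 21882184 to 21999903, plus strand) encodes the serum- and glucocorticoid-regulated kinase, whose promoter with the palindrome is printed above. It stood at 140, 96.6 and 191 CPM in the GFP-high libraries of the colon and 54.5, 119 and 153 CPM in its GFP-negative libraries, against 41.7, 19.5 and 34.7 CPM in small intestine. The lowest colon library, GFP-negative replicate 1, was close to the highest small intestinal library, replicate 1. Sgk1 was 3.90-fold higher in all colon than in small intestine, a log2 fold change of 1.96 ± 0.42 (edgeR adjusted p = 0.0218). That call depended on each small intestinal library, since the adjusted p in edgeR was 0.052 without replicate 1, 0.0781 without replicate 2 and 0.0827 without replicate 3. Sgk1 responds to cell stress and serum as well as to steroids. Of 14 immediate early and dissociation genes 1 was called between all colon and small intestine (Nr4a1, higher in colon), beside 8.79% of all genes tested. The summed level of those 14 ranged over 1016 to 1426 CPM in GFP-high, 709 to 1571 CPM in GFP-negative and 768 to 1893 CPM in small intestine, and their part in the Sgk1 difference was not tested.

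Against small intestine, 3 of the 10 genes were called in GFP-high (Hsd11b2, Scnn1b and Sgk1), where 5.69% of all genes tested were called, and 3 in GFP-negative (Hsd11b2, Scnn1b and Scnn1a), where 5.66% were. For Sgk1 the log2 fold change was 2.16 ± 0.46 in GFP-high (edgeR adjusted p = 0.03) and 1.77 ± 0.45 in GFP-negative (edgeR adjusted p = 0.0583). For Scnn1a it was 1.295 ± 0.342 in GFP-high (edgeR adjusted p = 0.0649) and 2.03 ± 0.35 in GFP-negative (edgeR adjusted p = 0.0117). These comparisons share the small intestinal libraries, and neither gene was called between the fractions themselves. The GFP-high call of Sgk1 was lost without GFP-high replicate 1 or 3, without any small intestinal library and without the replicate 2 pair, with edgeR adjusted p-values between 0.064 and 0.0958. Without the replicate 2 pair, edgeR called 2 of the 10 genes in GFP-high, 3 in GFP-negative and 4 in all colon, each against small intestine. Of the 21770 genes then tested, 389 were called higher and 119 lower in GFP-high. The same counts were 661 and 234 in GFP-negative and 659 and 430 in all colon.

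Of the 3 channel subunits, alpha was present in both regions, beta almost only in colon libraries, and gamma mainly in 1 colon library. Scnn1a (ENSMUSG00000030340.17, chromosome 6, 125320659 to 125344943, plus strand) encodes the alpha subunit, which is needed for a working channel. It had 9.83, 18.5 and 11.8 CPM in the GFP-high libraries of the colon and 21.4, 22.1 and 23.2 CPM in its GFP-negative libraries, against 7.28, 3.54 and 5.501 CPM in small intestine. All libraries held it, and the colon libraries lay above those of the small intestine. The level was 3.17-fold higher in all colon than in small intestine, a log2 fold change of 1.66 ± 0.32 (edgeR adjusted p = 0.0133), and without small intestine replicate 3 the adjusted p in edgeR was 0.0557.

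Scnn1b (ENSMUSG00000030873.10, chromosome 7, 121865038 to 121918514, plus strand) encodes the beta subunit. It had 2.58, 7.08 and 3.69 CPM in the GFP-high libraries of the colon and 9.07, 5.69 and 7.23 CPM in its GFP-negative libraries, against 0.0548, 0 and 0 CPM in small intestine. The small intestinal value came from 4 counts in replicate 1, and replicates 2 and 3 had none. The colon libraries held 3261 counts in all, which gives a ratio of 432 with a 95% counting interval of 168 to 1586. The interval covers counting error only. Scnn1b passed the filter on low counts only through the colon libraries, which limits the tests that follow. The fitted log2 fold change of all colon against small intestine was 8.42 ± 1.27 (edgeR adjusted p = 0.00491), with 8.06 ± 1.28 for GFP-high (edgeR adjusted p = 0.0088) and 8.78 ± 1.32 for GFP-negative (edgeR adjusted p = 0.00638).

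Scnn1g (ENSMUSG00000000216.9, chromosome 7, 121734479 to 121768475, plus strand) encodes the gamma subunit and lies 96.6 kb before Scnn1b on the same strand, with no RefSeq gene between them. It had 0, 16 and 12 counts in colon GFP-high libraries 1 to 3 and 112, 0 and 0 counts in colon GFP-negative, against none in small intestine. These were 0, 0.174 and 0.112 CPM in GFP-high and 1.45, 0 and 0 CPM in GFP-negative. A single library, GFP-negative replicate 1, thus held most of the counts of this gene, although its neighbour Scnn1b was present in all 6 colon libraries. The difference of all colon from the small intestine did not pass the test (edgeR adjusted p = 0.229). DESeq2 called it (adjusted p = 6.81e-11), and without the replicate 2 pair DESeq2 did not (adjusted p = 0.129). A count of 0 allows up to 0.0232 to 0.0411 CPM at these depths, so the gene was not detectable in the small intestine rather than shown to be absent.

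Levels per length put the subunits in the order alpha, beta, gamma in every colon library. In RPKM, Scnn1a averaged 4.31 ± 1.37 in colon, Scnn1b 2.24 ± 0.918 and Scnn1g 0.0968 ± 0.192 (SD, n = 6). In the small intestine the averages were 1.32 ± 0.452 RPKM for Scnn1a, 0.00694 ± 0.012 RPKM for Scnn1b and 0 for Scnn1g (SD, n = 3). The group ranges of Scnn1a and Scnn1b overlapped over the 6 colon libraries, as Scnn1a in GFP-high replicate 1 was lower than Scnn1b in 3 of the other colon libraries.

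**Figure D2:**
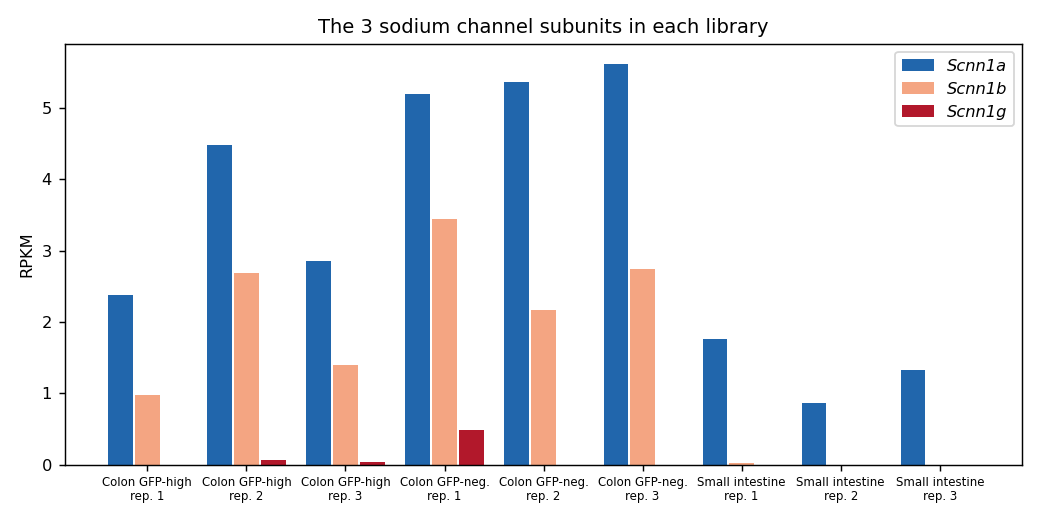
RPKM of Scnn1a, Scnn1b and Scnn1g as bars from 0 in each of the 9 libraries. Scnn1b reaches 0.979 to 3.45 RPKM in the colon libraries and is near 0 in the small intestine, while Scnn1g exceeds 0.1 RPKM only in colon GFP-negative replicate 1 (0.485 RPKM).

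Between the colon fractions none of the 10 genes was called, and 0% of the genes tested were. In that comparison 226 genes, 1.10%, had an unadjusted p under 0.05 in edgeR, and DESeq2 called 1 gene, which was not among the 10. Scnn1a was lower in all 3 libraries labelled GFP-high than in all 3 labelled GFP-negative, a pattern that 1.59% of the genes tested had. It averaged 13.4 ± 4.53 CPM in GFP-high libraries and 22.3 ± 0.883 CPM in GFP-negative ones (SD, n = 3 each), with a log2 fold change of -0.74 ± 0.34 (edgeR unadjusted p = 0.0573, adjusted p = 1). Without the replicate 2 pair it was -1.05 ± 0.42 (edgeR adjusted p = 0.642). Scnn1b averaged 4.45 ± 2.34 CPM in GFP-high libraries and 7.33 ± 1.69 CPM in GFP-negative ones, with a log2 fold change of -0.73 ± 0.90 (edgeR adjusted p = 1). Nr3c2 had a log2 fold change of -0.54 ± 0.38 and Sgk1 one of 0.39 ± 0.44 (both edgeR adjusted p = 1). Slc9a2 was at -0.02 ± 0.66, Slc9a3 at -0.82 ± 1.84, Slc26a3 at -0.37 ± 1.23 and Atp12a at -1.22 ± 1.77, none of them called. Without the replicate 2 pair the log2 fold change was -1.38 ± 1.13 for Scnn1b, -0.89 ± 0.47 for Nr3c2, 0.67 ± 0.56 for Sgk1, -0.50 ± 0.83 for Slc9a2, -1.62 ± 2.25 for Slc9a3, -1.82 ± 2.16 for Atp12a and -1.403 ± 1.502 for Slc26a3, and edgeR still called none of the 10 genes.

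**Figure D3:**
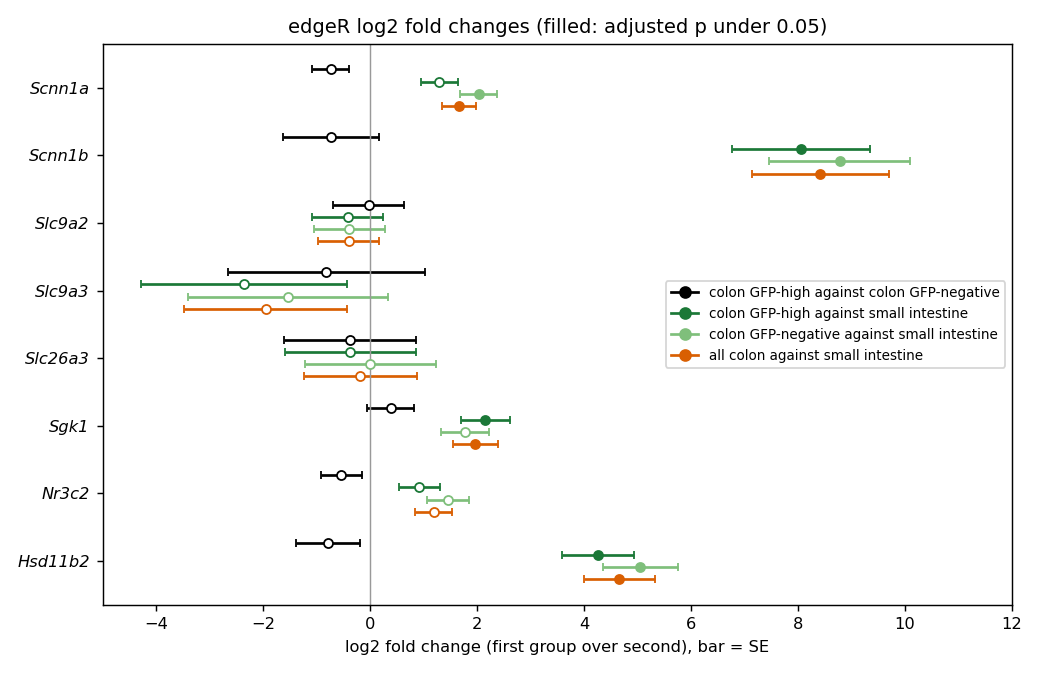
Log2 fold change (x axis) of the 8 genes other than Scnn1g and Atp12a, with bars of 1 SE, in 4 comparisons, where filled points have an adjusted p under 0.05 in edgeR. No point of colon GFP-high against colon GFP-negative is filled, and the filled points of all colon against small intestine are Scnn1a (1.66), Scnn1b (8.42), Sgk1 (1.96) and Hsd11b2 (4.66).

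None of the exchangers Slc9a2, Slc9a3 and Slc26a3 was called between colon and small intestine. Slc9a2 (ENSMUSG00000026062.13, chromosome 1, 40680574 to 40769273, plus strand) encodes the apical exchanger NHE2. It had 8.86, 47.7 and 56.1 CPM in the GFP-high libraries of the colon and 36.6, 22.4 and 54.7 CPM in its GFP-negative libraries, against 71.4, 23.0 and 54.9 CPM in small intestine. The groups overlapped, and the log2 fold change of all colon against small intestine was -0.40 ± 0.56 (edgeR adjusted p = 0.704).

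Slc9a3 (ENSMUSG00000036123.9, chromosome 13, 74121457 to 74169442, plus strand) encodes NHE3, the main sodium-proton exchanger of the intestinal brush border. It had 0, 5.91 and 7.37 CPM in the GFP-high libraries of the colon and 3.69, 0.618 and 18.8 CPM in its GFP-negative libraries, against 48.1, 0.566 and 18.9 CPM in small intestine. Libraries of 1 group differed from each other more than the groups did, and small intestine replicate 2 lay below every colon library that had counts. The log2 fold change was -1.95 ± 1.52 (edgeR adjusted p = 0.47).

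Slc26a3 (ENSMUSG00000001225.13, chromosome 12, 31390871 to 31473917, plus strand) encodes the chloride-bicarbonate exchanger DRA, whose loss causes congenital chloride diarrhoea in humans. It had 1.91, 80.8 and 62.5 CPM in the GFP-high libraries of the colon and 34.6, 17.1 and 134 CPM in its GFP-negative libraries, against 135, 14.5 and 36.9 CPM in small intestine. The lowest library was GFP-high replicate 1, which had no Slc9a3 counts either and the lowest Slc9a2 CPM. The log2 fold change was -0.18 ± 1.06 (edgeR adjusted p = 0.939), and an SE of this size leaves a change of either sign possible.

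Atp12a (ENSMUSG00000022229.4, chromosome 14, 56365068 to 56388550, plus strand) encodes the catalytic subunit of the colonic proton-potassium pump. It had 0, 2.18 and 3.80 CPM in the GFP-high libraries of the colon and 3.32, 0.429 and 9.95 CPM in its GFP-negative libraries, against no counts in small intestine. All colon libraries except GFP-high replicate 1 held it. Against 3 counts per library in the small intestine, the colon mean was at least 105-fold higher, or at least 62.3-fold without GFP-negative replicate 3, which had the most counts, and the test was not passed (edgeR adjusted p = 0.0686). Without GFP-high replicate 1, the adjusted p in edgeR was 0.0219.

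The levels of Slc9a2, Slc9a3 and Slc26a3 moved with the surface cell marker Krt20 from library to library, but not with all surface markers across the regions. Krt20, a keratin of differentiated surface epithelium, had 10.9, 655 and 412 CPM in the GFP-high libraries of the colon and 251, 51.2 and 488 CPM in its GFP-negative libraries, against 2364, 55.9 and 1007 CPM in small intestine. The libraries with little Krt20 were GFP-high replicate 1, GFP-negative replicate 2 and small intestine replicate 2, in which Slc9a3 had 0, 0.618 and 0.566 CPM. Over the 9 libraries, Pearson's r of log2(CPM + 1) was 0.96 between Slc9a2 and Slc26a3, 0.91 between Slc9a2 and Slc9a3 and 0.86 between Slc9a3 and Slc26a3, given as a description of points that share libraries. By the same measure Krt20 was the gene with the second highest likeness to Slc9a2 (r = 0.97). Among the colon libraries, the surface colonocyte marker sum was lowest in the same GFP-high replicate 1 and GFP-negative replicate 2 (1955 and 5464 CPM). In small intestine that sum was lowest in the same replicate 2 (517 CPM). Between the regions the other surface colonocyte markers were divided. In small intestine replicate 1, where Krt20 was highest, Car4, Ceacam20 and Ms4a12 also had their highest levels (784, 85.9 and 73.8 CPM). Car1 and Guca2a (2.44 and 781 CPM) were there below every colon library. Cyp2c55, Saa1 and Aqp8 (33.9, 11.4 and 30.3 CPM) were there below most colon libraries.

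**Figure D4:**
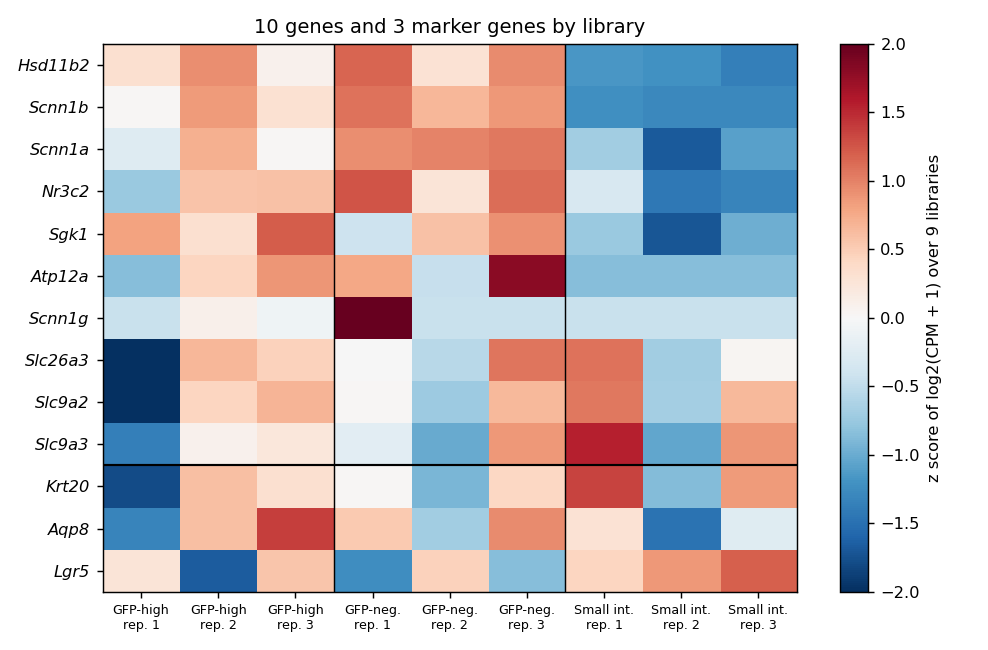
Each of the 10 genes, and below the line Krt20, the colonocyte water channel Aqp8 and Lgr5, as a z score of log2(CPM + 1) over the 9 libraries, with colours ending at 2 and -2, colon GFP-high and colon GFP-negative libraries on the left and small intestine on the right. Hsd11b2, Scnn1b, Scnn1a and Sgk1 are above 0 in most colon libraries and below 0 in the small intestine, while Slc26a3, Slc9a2 and Slc9a3 follow Krt20, lowest in GFP-high replicate 1.

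Markers of mature and stem cells were summed beside these values. The 9 surface colonocyte markers summed to 1955, 27649 and 11119 CPM in the GFP-high libraries of the colon and 15409, 5464 and 32168 CPM in its GFP-negative libraries, against 4166, 517 and 1313 CPM in small intestine, and 2 of the 9 were called higher in colon (Car1 and Guca2a). The 10 small intestinal enterocyte markers ranged over 156 to 283 CPM in GFP-high, 252 to 369 CPM in GFP-negative and 753 to 38860 CPM in small intestine, with 9 of 10 called lower in colon. The 10 stem cell markers summed to 274 to 1364 CPM in GFP-high, 256 to 1304 CPM in GFP-negative and 5833 to 11005 CPM in small intestine. Most of the small intestinal sum was Olfm4, with 4909, 8852 and 7396 CPM in replicates 1 to 3, against 2.21 to 5.15 CPM in colon. Of the 10 markers, 1 was called lower in colon and 0 had a positive log2 fold change, with a median of -1.21. Beside these counts of calls, 5% of all genes tested were called higher in colon and 3.79% lower. In GFP-high replicate 1, the colon library with the lowest surface marker sum, Hsd11b2, Sgk1, Scnn1b and Scnn1a were above every small intestinal library, Nr3c2, Slc9a2 and Slc26a3 were not, and Slc9a3, Atp12a and Scnn1g had no counts. The part of cell content in the differences of the 10 genes was not tested.

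Markers of cells outside the epithelium were low in most libraries. Leukocyte markers summed to 2.32 to 214 CPM in GFP-high, 3.42 to 1541 CPM in GFP-negative and 12.5 to 33.1 CPM in small intestine. None of these 10 was called, while 8.79% of all genes tested were called between all colon and small intestine. Stromal and endothelial markers summed to 6.61 to 19.7 CPM in GFP-high, 4.26 to 65.7 CPM in GFP-negative and 2.57 to 8.36 CPM in small intestine, with the endothelial Cdh5 at 0 in all 9 libraries. Library names share prefixes that may mark a common origin. Within the first such prefix, with 2 colon and 2 small intestinal libraries, the difference of log2(CPM + 1) between colon and small intestine was 1.35 for Scnn1a, 2.55 for Scnn1b, 1.58 for Sgk1 and 4.45 for Hsd11b2. Within another, with 1 library of each, it was 0.98, 2.23, 2.43 and 3.37 for the same genes in the same order, and the remaining prefix held colon libraries alone.

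Of 24 sodium transport partners, regulators of the sodium channel and pump, 23 were tested, and 2 were called higher and 1 lower in all colon than in small intestine, where 5% of all genes tested were called higher and 3.79% lower, with a median log2 fold change of -0.31 against -0.0003 over all genes. Fxyd3, a regulator of the sodium pump, had 52.9, 94.5 and 29.99 CPM in GFP-high and 67.3, 66.4 and 43.2 CPM in GFP-negative, against 9.98, 11.9 and 5.27 CPM in small intestine (log2 fold change 2.71 ± 0.44, edgeR adjusted p = 0.00704). Fxyd4, an aldosterone-responsive sodium pump regulator also called CHIF, had 0, 835 and 753 counts in GFP-high libraries and 779, 129 and 4126 counts in GFP-negative ones, against 2, 0 and 0 counts in small intestine. GFP-negative replicate 3, which held most of these counts, also had the highest leukocyte marker sum (1541 CPM) and the highest surface colonocyte marker sum (32168 CPM). The part of either in the difference was not tested. The ratio of colon to small intestine was 1754 with a 95% counting interval of 485 to 14483 (edgeR adjusted p = 0.047), and without GFP-negative replicate 3 it was 789 with an interval of 218 to 6518 (edgeR adjusted p = 0.059). Fxyd4 passed the filter on low counts only through the colon. Usp2, a deubiquitinase that acts on the channel, was lower in colon at -1.14 ± 0.26 (edgeR adjusted p = 0.0305). Nedd4l, which encodes the ligase that SGK1 restrains, had a log2 fold change of -0.76 ± 0.27 and did not pass (edgeR adjusted p = 0.123), nor did the channel-activating protease Prss8 at 0.46 ± 0.24 (edgeR adjusted p = 0.27).

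Partners of the exchangers divided by region in both directions. Of 25 listed, 22 were in the table, 20 were tested, 4 were called higher in colon and 5 lower, against 5% and 3.79% of all genes tested, with a median log2 fold change of -0.11. The carbonic anhydrases Car1 (10.56 ± 1.84, edgeR adjusted p = 0.00899) and Car2 (6.77 ± 0.79, edgeR adjusted p = 0.00164), which supply protons and bicarbonate to the exchangers, were higher in colon. So was Slc5a8, a sodium-coupled carrier of short-chain fatty acids (3.73 ± 0.92, edgeR adjusted p = 0.0384). The scaffold protein genes split. Nherf2 was higher in colon by 3.23 ± 0.52 on the log2 scale (edgeR adjusted p = 0.0063), while Nherf1 fell by 1.66 ± 0.40 (edgeR adjusted p = 0.0341). Pdzk1, a further scaffold of the brush border, had 1 to 76 counts in the colon libraries, against 8348, 88 and 6970 counts in small intestine (log2 fold change -9.01 ± 1.49, edgeR adjusted p = 0.00716). Slc26a6, another chloride-bicarbonate exchanger, had 1.47, 2.31 and 0.782 CPM in GFP-high and 1.57, 1.43 and 3.00 CPM in GFP-negative, against 481, 16.7 and 236 CPM in small intestine (log2 fold change -7.13 ± 0.86, edgeR adjusted p = 0.00187). The lactate carrier Slc5a12 (-8.76 ± 1.52, edgeR adjusted p = 0.00884), which like Pdzk1 passed the filter only through the small intestine, and the glucose carrier Slc5a1 (-2.25 ± 0.47, edgeR adjusted p = 0.0202) were lower in colon as well. Pdzk1 and Slc26a6 were lowest in small intestine replicate 2. The enterocyte marker sum, which includes Slc5a1, was 38860, 753 and 9225 CPM in small intestine replicates 1 to 3. Car1 is in turn a surface colonocyte marker. The part of cell content in these differences was not tested. Against small intestine, 4 of the 20 were called higher in GFP-high and 3 lower, where 5.69% of all genes were called, and 4 were called higher in GFP-negative and 1 lower, where 5.66% were.

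Among steroid receptor targets and steroid handling genes, 18 of 19 were tested, and 1 was called higher and 1 lower in colon, beside 8.79% of all genes called in either direction, with a median log2 fold change of 0.17. Nr3c1, which encodes the glucocorticoid receptor, had 21.5, 22.2 and 29.0 CPM in GFP-high and 24.1, 25.6 and 21.3 CPM in GFP-negative, against 73.1, 55.5 and 56.1 CPM in small intestine. It was lower in colon by a log2 fold change of -1.36 ± 0.18 (edgeR adjusted p = 0.00298), opposite in sign to the estimate for Nr3c2. Ndrg2, which responds to aldosterone in kidney and colon of rodents, was higher at 1.54 ± 0.28 (edgeR adjusted p = 0.0109), with 118, 210 and 140 CPM in GFP-high and 265, 158 and 177 CPM in GFP-negative, against 58.5, 74.0 and 50.3 CPM in small intestine. The shared glucocorticoid and mineralocorticoid targets Tsc22d3 (0.15 ± 0.41), Per1 (0.26 ± 0.48) and Fkbp5 (0.46 ± 0.35) did not pass the test, with edgeR adjusted p-values of 0.859, 0.783 and 0.459. Of the 18 genes, 11 had a positive log2 fold change.

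Of 13 potassium and chloride channels and cotransporters, 12 were tested, 3 were called higher in colon and 1 lower, against 5% and 3.79% of all genes tested, with a median log2 fold change of -0.53. Kcnma1, the BK potassium channel that carries aldosterone-stimulated potassium secretion in mouse colon, had 10.3, 15.4 and 6.65 CPM in GFP-high and 18.5, 14.7 and 9.75 CPM in GFP-negative, against 0.864, 0.791 and 0.434 CPM in small intestine (log2 fold change 4.16 ± 0.46, edgeR adjusted p = 0.00128). Best2, a bicarbonate channel of colonic goblet cells, had 33742 counts in colon and 6 in small intestine and passed the filter only through the colon, with a ratio of 2978 with a 95% counting interval of 1368 to 8116 (edgeR adjusted p = 0.00135). Goblet cell markers summed to 7476 to 44082 CPM in GFP-high, 17378 to 46813 CPM in GFP-negative and 1908 to 19390 CPM in small intestine, with 4 of 8 called higher in colon, against 5% of all genes tested. The part of goblet cells in the Best2 difference was not tested. Ano1, a calcium-activated chloride channel, was higher by 3.55 ± 0.38 (edgeR adjusted p = 0.00119). The basolateral cotransporter Slc12a7 was lower at -1.07 ± 0.22 (edgeR adjusted p = 0.0202), and Cftr, the cyclic AMP-gated chloride channel, was at -0.23 ± 0.32 (edgeR adjusted p = 0.697). Between the colon fractions no gene of these 4 lists was called.

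The calls of Fxyd4, Usp2, Slc5a8, Nherf1, Slc5a1, Slc12a7 and Ndrg2 between all colon and small intestine were lost without small intestine replicate 1 (edgeR adjusted p between 0.0525 and 0.139) and without small intestine replicate 3 (between 0.0622 and 0.185). All but Ndrg2 were also lost without at least 1 of the colon libraries. The calls of Fxyd3, Car1, Car2, Nherf2, Pdzk1, Slc5a12, Slc26a6, Nr3c1, Best2, Kcnma1 and Ano1 held with each single library left out. Of these, Pdzk1 and Slc5a12 were lost under the block on the replicate number (edgeR adjusted p = 0.0661 and 0.0843). Under the block on the shared name prefix they were lost too (0.068 and 0.176), as were Nr3c1 (0.0538) and Nherf2 (0.0702). Under the block on the library name tag all 18 were lost, but small intestine replicate 1 and GFP-negative replicate 3 added nothing to that fit's comparisons. A lost difference and a weaker test cannot be told apart there. In limma-voom, Fxyd4, Best2, Pdzk1, Slc5a12 and Nherf1 were not called. These alternatives were chosen for the list genes after seeing the data.

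The genes whose pattern over the 9 libraries was most like each member were found among 13539 tested genes with a mean of at least 1 CPM. For Hsd11b2 they were Tnfaip8 and Sval1 (both r = 1.00 to 2 decimals), for Scnn1b Wbp2nl (r = 1.00) and Stx19 (r = 0.99), for Scnn1a Tc2n and Ces1g (both r = 0.97) and for Nr3c2 Rhbdl2 and Mgat4c (both r = 0.96). For Sgk1 they were Tcp11l1 (r = 0.97) and Ptpn14 (r = 0.95). For the transporters they were Mxd1 (r = 0.98) and Krt20 (r = 0.97) with Slc9a2, Cyp2d22 (r = 0.99) and Lipa (r = 0.98) with Slc9a3, Ifit1bl1 (r = 0.98) and Mep1a (r = 0.97) with Slc26a3 and Cyp2d12 and Tgm3 (both r = 0.99) with Atp12a. For Scnn1g they were Prg4 (r = 0.98) and Serpinb2 (r = 0.96), which rest on the 1 library that held most of its counts. Within the set, Scnn1b and Hsd11b2 had r = 0.98, and Scnn1a and Scnn1b r = 0.95. All these values are given without a test.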

How the data were processed

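Reads were handled with STAR, featureCounts and Subread and with edgeR, on build mm10, per the submitters' processing notes. For versions, strand setting and annotation release, the entry is not given in the sources used here. The authors deposited 1 table that holds, per the file headers, a raw read count per gene and library, with log2 TPM, log2 CPM and log2 RPKM beside it, and gene lengths, library totals and TMM factors. The deposited TMM factor is a ratio between 0.805 and 1.21. All 9 libraries were matched to the labels, and 0 columns belonged to other samples.

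Counts were tested in R 4.3.3 with edgeR 4.0.16: filterByExpr left 20610 genes (57629 not tested), libraries were TMM-scaled, and 1 quasi-likelihood fit of 3 groups gave all contrasts, two-sided, with Benjamini-Hochberg adjustment over all genes tested. All colon is the mean of both colon groups. Levels in the text are CPM and RPKM computed from the counts with the deposited totals, factors and lengths. A fold against a group without counts is a bound set at 3 counts per library. Gene coordinates come from GENCODE M21 (GRCm38).

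Replicates were checked against each other, and no 2 libraries agreed within sampling noise: within a group, chi-square per gene was 477 to 1172. Precision was set by the spread between libraries, with a common biological coefficient of variation of 0.726, rather than by depth. The main fit did not pair libraries by replicate number.

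The 10 genes, the gene lists and the alternatives were chosen with earlier results of these data known. All 10 were named, with, from each of 4 pathway lists, up to 3 genes called higher and up to 3 called lower between all colon and small intestine, by size, at a mean of at least 1 CPM. Nherf1, Nherf2, Slc5a1, Nedd4l, Prss8, Tsc22d3, Per1, Fkbp5, Cftr and Nr4a1 were added after their values were seen. Alternatives were other scaling, no filter, DESeq2 1.42.0, limma-voom (limma 3.58.1), blocks, and left-out libraries.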

Additional observations from a re-analysis of the deposited data

Results flagged for a closer look

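Among the 6 colon libraries, Scnn1g stood at 1.45 CPM in colon GFP-negative replicate 1, and the next highest library, colon GFP-high replicate 2, had 0.174 CPM. The gap to that library made up 0.88 of the whole range, above Dixon's 95% critical value of 0.625 for 6 libraries. This was 1 of 10 genes checked in this way. For normally distributed values chance flags about 1 in 20 groups. That rate need not hold for a gene with few or no counts in most libraries. Beside it, Scnn1b had 9.07 CPM in the same library, the highest of the 6 but close to the 7.23 CPM of GFP-negative replicate 3.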

How the results depend on the processing

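Hsd11b2 and Scnn1b stayed called between all colon and small intestine under every alternative except a block on the library name tag, where the edgeR adjusted p was 0.257 for Hsd11b2 and 0.143 for Scnn1b. Under that block 0 of the 10 genes were called in any comparison, with 18 genes called for GFP-high, 0 for GFP-negative and 18 for all colon against small intestine. Small intestine replicate 1 and GFP-negative replicate 3 each had a tag of their own, so under that block they added nothing to the comparisons. A lost difference and a weaker test cannot be told apart there. Scnn1a was not called between all colon and small intestine under the tag block (edgeR adjusted p = 0.228), under the replicate block (0.062), under a block on the shared name prefix (0.114) or without small intestine replicate 3 (0.0557). Sgk1 was not called under the same 3 blocks (edgeR adjusted p = 0.226, 0.0539 and 0.141), nor without any 1 small intestinal library. For GFP-negative against small intestine, Scnn1a was not called under the replicate, tag and prefix blocks (edgeR adjusted p = 0.0613, 0.3 and 0.139), nor Scnn1b under the tag and prefix blocks (0.224 and 0.0588). Atp12a was called without the filter on low counts, in DESeq2 and in a fit of 2 groups. The causes of these changes were not tested.

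Counts of calls moved as follows. DESeq2 called 6 of the 10 genes and 2713 genes for GFP-high, 7 and 2859 for GFP-negative and 7 and 3618 for all colon against small intestine, and 1 gene between the fractions. Without the filter, 5 of the 10 were called for GFP-negative against small intestine. Alternatives added after seeing the data were DESeq2 without both colon libraries of replicate 2 and the prefix block. The first called 702 genes between the fractions, 1 of the 10 among them, 1868 for GFP-high, 3099 for GFP-negative (6 of the 10) and 2845 for all colon. The second called 437 for GFP-high, 236 for GFP-negative (1 of the 10) and 500 for all colon (2 of the 10). With libraries left out, 2 (without small intestine replicate 3) to 6 (without GFP-high replicate 1) of the 10 genes were called for all colon against small intestine. Counts over all genes were then 991 to 1787 for all colon, 508 (without the replicate 2 pair) to 1375 for GFP-high and 531 (without GFP-negative replicate 1) to 1078 for GFP-negative.

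Same-numbered libraries had correlations of -0.65 to 0.35 in their deviations from the group means. The lowest was that of the 2 colon libraries of replicate 2, whose Lgr5 goes against the labels. Some same-numbered libraries also share a name tag, so these correlations cannot show whether the libraries were paired. With the replicate number as a block, 508 genes were called for GFP-high, 532 for GFP-negative and 895 for all colon against small intestine, 2 of the 10 among the last. Between the fractions the replicate block gave log2 fold changes of 2.27 for Scnn1g, 0.0211 for Slc9a2, 0.58 for Slc9a3 and 0.0759 for Slc26a3. These were opposite in sign to the main fit (-2.33, -0.02, -0.82 and -0.37). For Slc26a3 in GFP-negative against small intestine the block gave -0.29, where the main fit had 0.0076.

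Other reversals were of genes not called. Between the fractions they were Slc9a2 under total counts (0.10), where the median of all genes moved to 0.127, and Scnn1g with limma-voom (0.63) and the prefix block (2.34). For GFP-negative against small intestine they were Slc26a3 without the filter (-0.0022) and under the prefix block (-1.04), and under the tag block Slc9a2 (0.21) and Slc9a3 (1.59). Under the tag block Slc26a3 reversed for GFP-high (0.30), and for all colon so did Slc9a2 (0.0195), Slc9a3 (0.22) and Slc26a3 (0.49). With libraries left out, log2 fold changes between the fractions ranged over -2.10 to 0.0874 for Atp12a, -3.67 to 6.27 for Scnn1g, -1.40 to 0.90 for Slc26a3, -0.50 to 0.45 for Slc9a2 and -1.62 to 1.04 for Slc9a3. Against small intestine Slc26a3 ranged over -0.81 to 1.09 for all colon, -0.95 to 0.91 for GFP-high and -1.27 to 1.27 for GFP-negative, Slc9a2 over -0.81 to 0.0789 for GFP-high and Scnn1g over 0 to 9.16 for GFP-negative. Among the 10 genes, depth limits Scnn1g, Atp12a, Slc9a3 in GFP-high replicate 1 and Scnn1b in small intestine, which had few or no counts.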
